A study of Homo sapiens with 2 samples.

Results

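MKLN1 encodes muskelin, and 9 of the 4169 intervals called in a ChIP-seq library for sGCβ1, a subunit of soluble guanylate cyclase, were assigned to this gene. The members were chosen by the deposited gene list: all intervals where it names MKLN1, with the distance and position it gives for this gene. The library came from U-87 MG, an established human malignant glioma line, overexpressing sGCβ1 and grown in Eagle's medium with 10% serum and no treatment; it was the only ChIP library, made with an anti-sGCβ1 antibody. An input library without antibody, from the same overexpressing cells, was not used here, and no cells without overexpression enter any value. With 1 ChIP library no value has a replicate error, and MKLN1 was chosen for how many intervals it carries, so everything below describes this list, with no test. Read totals are not given in the sources used, so the depth behind an interval is unknown.

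Muskelin is a kelch-repeat protein that was first studied as an intracellular mediator of cell adhesion and spreading on thrombospondin. It is a subunit of the CTLH complex, a ubiquitin ligase named after a motif that several of its subunits share and related to the GID complex of budding yeast. sGCβ1 is the haem-binding subunit of the enzyme that makes cyclic GMP in response to nitric oxide. In ChIP-seq an interval is a stretch of the genome where fragments recovered with the antibody pile up, and its summit is the point of highest density.

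The 9 intervals comprised a pair at CpG islands beside transcript starts, 6 in introns and 1 in the last exon, and the sequences that show this are given first. Each member is named by the distance of its summit from the first annotated start of MKLN1. The 200 bp around the summit at -2.2 kb (hg19 chr7:130792572-130792771, forward strand) lie in an interval that was given a CpG island. They hold 3 of the words searched, in capitals: the GC box GGGCGG, then CGTCGC, and last the word CGTGAC, on the reverse strand. The summit at +217.8 kb lies in the first coding exon of the canonical transcript, shown from 30 bases before its start codon (chr7:131012629-131012778, forward strand), with the start codon in capitals. The window at +78.7 kb (chr7:130873500-130873699, forward strand) is the only one of the 9 with an AP-1-like word, TGAATCA, in capitals. That at +125.2 kb (chr7:130919996-130920195, forward strand) is shown for its simple repeats, with the longest run of a 2-base unit, 18 bases, in capitals.
-2.2 kb: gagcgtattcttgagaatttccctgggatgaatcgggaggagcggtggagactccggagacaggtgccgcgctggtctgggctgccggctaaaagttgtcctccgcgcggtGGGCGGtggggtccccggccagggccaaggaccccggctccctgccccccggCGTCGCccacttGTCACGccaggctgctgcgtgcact
+217.8 kb: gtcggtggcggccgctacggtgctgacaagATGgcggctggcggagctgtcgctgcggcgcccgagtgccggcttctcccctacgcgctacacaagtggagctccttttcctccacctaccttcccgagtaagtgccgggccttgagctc
+78.7 kb: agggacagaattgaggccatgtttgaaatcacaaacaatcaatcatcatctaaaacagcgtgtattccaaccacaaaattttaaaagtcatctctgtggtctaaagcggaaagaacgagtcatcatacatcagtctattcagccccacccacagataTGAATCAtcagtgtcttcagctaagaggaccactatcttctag
+125.2 kb: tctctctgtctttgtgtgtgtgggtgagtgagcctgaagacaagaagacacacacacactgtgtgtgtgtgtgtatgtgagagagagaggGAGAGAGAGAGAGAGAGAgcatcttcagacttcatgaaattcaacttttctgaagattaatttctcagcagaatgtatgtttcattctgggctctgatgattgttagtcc

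MKLN1 lies on the forward strand of chromosome 7 from 130794855 to 131181391 (GENCODE version 44 on GRCh37, 386.5 kb), and the annotation gives it 12 transcripts. Of their starts, 2 are used here. The longest, MKLN1-203 with 19 exons, begins at the first base of the gene, and the canonical one, MKLN1-201 with 18 exons, begins 217.8 kb further on, at 131012635. Of the 9 summits, 6 lay before the start of the canonical transcript and 3 within it. The second intron of MKLN1-203, 232.5 kb long and 60.1% of the gene, held 6 summits, the one at the canonical start among them.

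**Figure D1:**
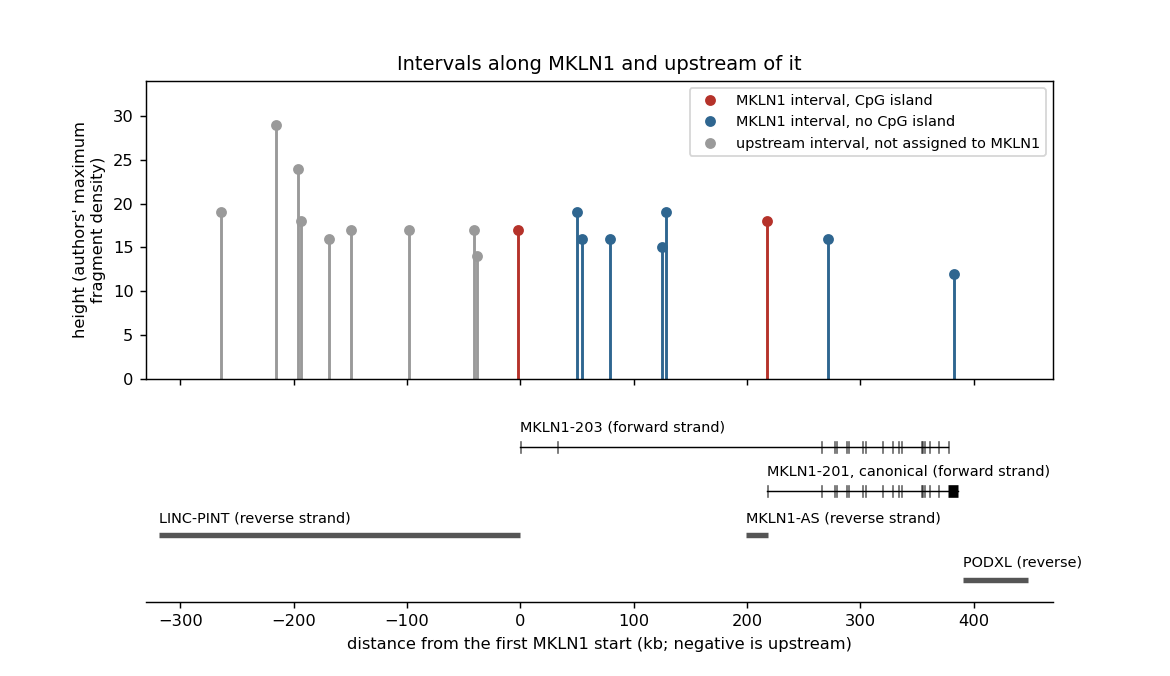
Height of each interval (authors' maximum fragment density, no unit) against the distance of its summit from the first MKLN1 start in kb, above the annotated transcripts and genes (thick bars on the transcripts are exons). The 9 MKLN1 intervals have heights from 12 to 19, and the 9 intervals upstream of them, from -264.3 to -38.2 kb, have 14 to 29.

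Both CpG island intervals sat at starts of non-coding transcripts as well as near starts of MKLN1. The interval at -2.2 kb (130791975 to 130794303) had a height, the authors' maximum fragment density, of 17, a mean density of 9.35 and a MACS score of 118.52 (minus 10 times log10 of the p-value). It ended 552 bp short of the first MKLN1 start, and its summit lay in exon 1 of the canonical transcript of LINC-PINT, a long non-coding RNA gene induced by p53, 15 bp inside that transcript, which runs the other way. The deposited list also assigned this interval to FLJ43663, a name it gives to other intervals inside LINC-PINT too. Of all intervals in the list, 35% were given a CpG island.

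The interval at +217.8 kb (131011150 to 131013417) covered the start of the canonical transcript. Its height was 18, its mean density 10.3, the highest of the 9, and its score 106.05. The summit lay 37 bp after the canonical start and 13 bp after the first base of the start codon. The antisense gene MKLN1-AS, listed as LOC100506881, begins in the same interval on the other strand. Summits of all 9 members lie on a grid of 32 bp, as do 72.6% of all summits, so distances of a few bp are finer than the summit positions.

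Before the canonical start, 5 intervals without a CpG island lay in introns of the longer transcripts. At +50 kb (130844314 to 130846144) the height was 19 with a score of 85.69, the lowest score of the 9. Next to it, at +54.1 kb (130848321 to 130852627), the height was 16 with a score of 131.04, and at 4306 bp this was the longest interval of the gene. These neighbours were a close pair, with summits 4064 bp apart.

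The interval at +78.7 kb (130872668 to 130874255) stood alone, with a height of 16, a score of 92.67 and the shortest length of the 9, 1587 bp. A second close pair followed, with summits 3072 bp apart. Its first interval, at +125.2 kb (130919413 to 130921719), had a height of 15 and a score of 218.76, the highest score of the gene. Its second, at +128.3 kb (130922257 to 130924322), had a height of 19 and a score of 152.06. The highest score thus did not go with the greatest height.

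The canonical transcript held 3 summits, the one at its start included, or 1.78 per 100000 bp, against 2.33 for all members over the gene. At +271.3 kb (131064755 to 131066955), in intron 2 of the canonical transcript, the height was 16 and the score 143.89. From there to the last member no interval was called over 111.2 kb, a stretch with 15 of the 18 canonical exons. The last member, at +382.5 kb (131175850 to 131177960), had the lowest height, 12, with a score of 94.21. Its summit lay in the last exon, in the 3′ UTR, 4047 bp before the end of the gene. The list also assigned it to PODXL, the gene of the cell-surface sialomucin podocalyxin, as a downstream interval 64032 bp from that gene's start.

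Summits of the 6 intronic members were 5.74 to 35.4 kb from the nearest annotated MKLN1 exon. Gaps between neighbouring MKLN1 summits ran from 3.07 to 111.2 kb with a median of 49.3 kb, against a median of 102.5 kb between neighbours on all of chromosome 7. Counted over the gene length, MKLN1 carried 2.33 intervals per 100000 bp, against 0.228 on chromosome 7 and 0.135 in the genome, both over lengths that include unsequenced bases. With all 9 members, the density was 10.2 times that of the chromosome, for a gene chosen for its count.

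MKLN1 is the downstream part of a longer run of intervals, delimited after the data were seen by gaps over 500 kb, which ends in the last exon of the gene. Upstream of the first member, 9 more intervals followed each other back to -264.3 kb, all inside LINC-PINT, which runs from 130476023 to 130794935 and held 10 summits, the member at -2.2 kb included (3.14 per 100000 bp). The 18 intervals spanned 646.8 kb, and before them lay 526.9 kb without an interval. The nearest interval outside the members on the upstream side, at -38.2 kb, had a height of 14. After the last member no interval was called for 1247 kb, and 34 of the 362 gaps on chromosome 7 were at least that long. The next interval had a height of 16.

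Neither protein-coding neighbour had a summit inside it. KLF14, a Krüppel-like transcription factor gene, ends 375.9 kb before MKLN1, and its start was 111.6 kb from the nearest summit. PODXL begins its span 3.63 kb after MKLN1 ends and is read on the other strand, and its start was 65.6 kb from the nearest summit, that of the last MKLN1 member. The listed and annotated starts of PODXL differ.

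In windows of 1 Mb counted from the first MKLN1 start, chromosome 7 had a median of 1 interval over 160 windows. The window before the start held 17, the most of any window on the chromosome, and the window after it held 8, a count reached by 10 windows. The 2 windows after that held 3 and 1. Within 10 Mb of the MKLN1 start, 12.6% of the chromosome's length, lay 129 of its 363 intervals (35.5%). DNA copy number along the chromosome was not measured here, and its part in these counts was not tested.

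**Figure D2:**
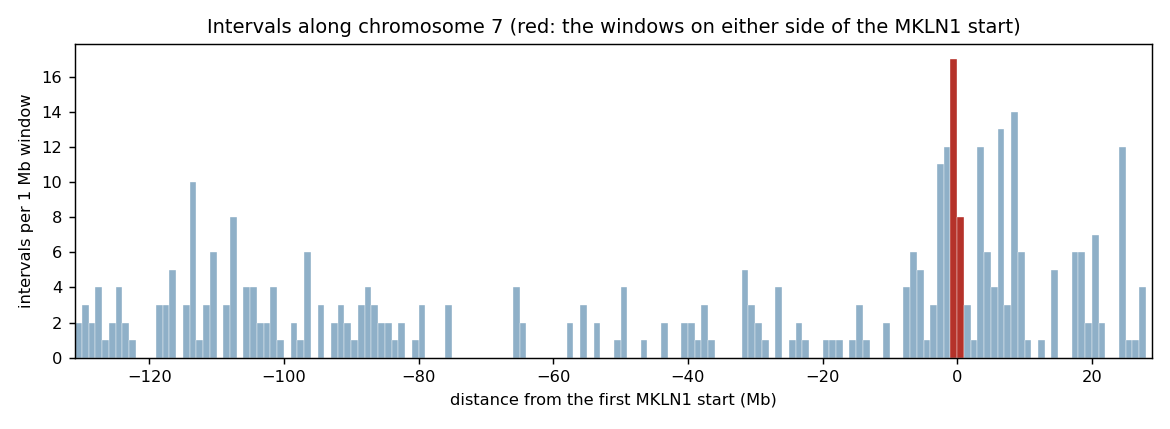
Number of intervals in each 1 Mb window of chromosome 7 against the distance of the window from the first MKLN1 start in Mb. The red windows before and after the start hold 17 and 8 intervals, against a median of 1 per window.

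Among genes, MKLN1 ranked higher by count than by density. With 8 summits inside the annotated gene it ranked second, level with PALM2AKAP2 and RAD51B and behind PRKG1 with 15. Of 20163 protein-coding genes, 4 (0.0198%) had 8 or more, and 96 (0.476%) had 3 or more. By summits per 100000 bp, MKLN1 was at rank 36 of those 96 with 2.07, against 4.94 for HMGA2 and 1.15 for PRKG1. The deposited list adds the member at -2.2 kb, which lies before the gene.

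The genes whose pattern was most like that of MKLN1 were taken by nearness in the number of summits inside the gene, then in log2 gene length, among 18 other genes with 5 or more. They were PALM2AKAP2, which encodes an A-kinase anchoring protein, with 8 summits over 674.2 kb; RAD51B, a recombination repair gene, with 8 over 910.4 kb; GLIS3, a zinc finger transcription factor gene, with 7 over 524.3 kb; OSBPL9, a lipid-binding protein gene, with 7 over 221.2 kb; and NAV2, a neuron navigator gene, with 7 over 770.9 kb. MKLN1 had 2.07 summits per 100000 bp, against 3.16 in OSBPL9, and the other 4 genes ranged from 0.879 to 1.34. Median gaps between summits were 46.5 kb for the 8 summits inside MKLN1 and 23.2 to 71.9 kb in the 5 genes.

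**Figure D3:**
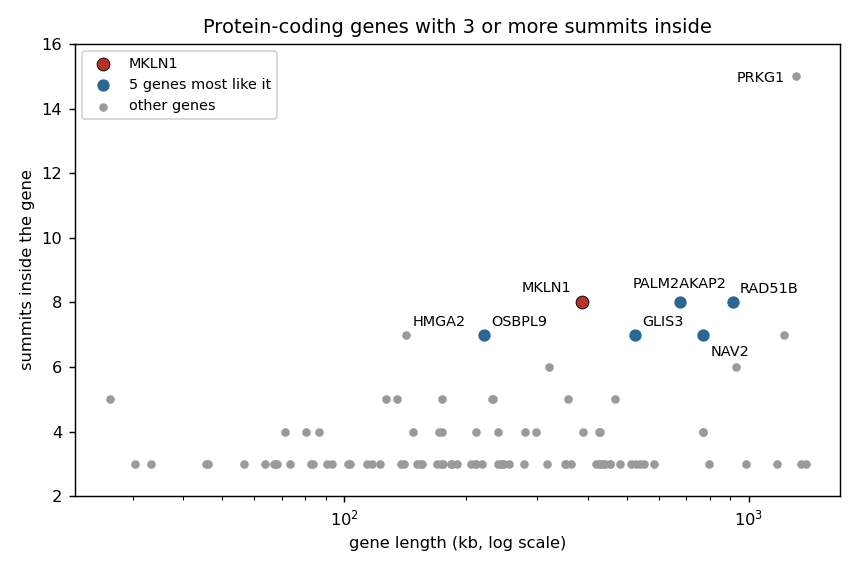
Number of summits inside the gene against gene length in kb (log scale) for the 96 protein-coding genes with 3 or more. MKLN1, with 8 summits over 386.5 kb, is the shortest of the 4 genes with 8 or more.

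The MKLN1 intervals were of moderate height and long. Their heights ran from 12 to 19 with a median of 16, against a median of 14 and a maximum of 263 in the whole list, and none reached 40, a height that 9.86% of all intervals reached. Of the 9, 8 were at or above the list's median height, as were 60.9% of all intervals; the exception is the one at +382.5 kb. Lengths ran from 1587 to 4306 bp with a median of 2200 bp, against 1296 bp in the list. Of the 9, 8 were at or above the upper quartile of length of the list, 1614 bp, as were 25.1% of all intervals; the exception is the one at +78.7 kb. At heights from 12 to 19 the list's median length was 1284 bp over 2673 intervals, and on chromosome 7 it was 1428 bp over 259.

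Long intervals were not limited to MKLN1 but shared by its surroundings. The other 120 intervals within 10 Mb of its start had a median length of 1986 bp and a median height of 16, and the 234 intervals further off on chromosome 7 had 1296 bp and 14. Scores of the 9 had a median of 118.52, against 99.22 in the list, and 6 of 9 lay at or above that median, as do 50% of all by its definition. Height over mean density, a measure of how pointed an interval is, had a median of 1.89 for MKLN1 and 2.00 for all intervals.

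**Figure D4:**
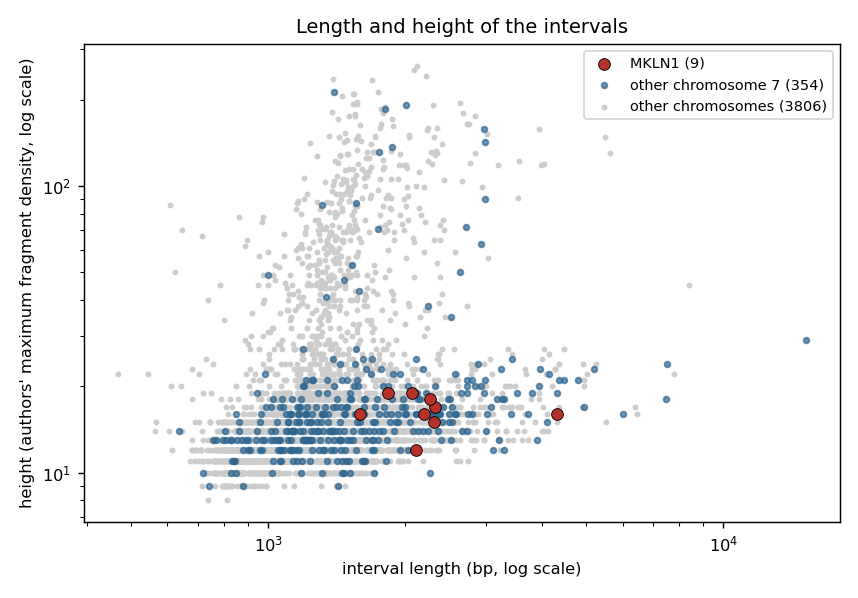
Height (authors' maximum fragment density) against length in bp, both on log scales, for the 9 MKLN1 intervals, the other 354 of chromosome 7 and the 3806 of other chromosomes. The MKLN1 intervals lie between heights of 12 and 19 and lengths of 1587 and 4306 bp, against list medians of 14 and 1296 bp.

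Set beside the intervals assigned to PRKG1 and HMGA2, 2 other genes with many, those of MKLN1 were taller and longer by median. These 2 genes were added after their values were seen. Median height was 16 for MKLN1, 13 for the 15 intervals of PRKG1, the cyclic GMP-dependent protein kinase gene, and 12.5 for the 8 of HMGA2, an architectural chromatin protein gene. Median length was 2200 bp for MKLN1, 1567 bp for PRKG1 and 1338 bp for HMGA2. Among the genes named above as most like MKLN1, OSBPL9 was taller, with a median height of 17. Median heights were 13.5 in PALM2AKAP2, 14 in GLIS3 and 15 in both RAD51B and NAV2. For the 8 summits inside MKLN1 the median height was 16 and the median length 2155 bp. Median lengths in the like genes ran from 1295 bp (PALM2AKAP2) to 1614 bp (OSBPL9). The ranges of height overlapped, with 12 to 19 for MKLN1, 10 to 23 for PRKG1 and 10 to 16 for HMGA2, and no difference was tested, since intervals of 1 library are not replicates.

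Base composition differed between the MKLN1 summits with and without a CpG island, a split that follows largely from how CpG islands are defined. Over the 200 bp windows, G and C made up 68.5% at -2.2 kb and 69% at +217.8 kb, with 18 and 20 CG dinucleotides. The other 7 windows had 36% to 51% G and C and 0 to 3 CG dinucleotides. The groups did not overlap, and the median of all intervals, 50%, lay between the CpG island pair and 6 of the 7 others. Over the list, intervals with a CpG island had a median of 63% (29% to 78.5%). Those in protein-coding genes without one had a median of 45.5% (24.5% to 77%). The median of the 9 was 43%, against 38% at PRKG1 and 37.5% at HMGA2. For the 8 summits inside MKLN1 it was 42.75%. Of the genes most like MKLN1, OSBPL9 had 37.5% and GLIS3 38%. PALM2AKAP2 had 43.5%, RAD51B 47.75% and NAV2 53%.

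Some summits in introns, and the one in the last exon, lay in sequence that in part recurs in the genome. Of the 24-base words in a window, all were found once in the genome in 5 of the 9 windows, as in 69.5% of all intervals. At +54.1 kb only 31.6% were single-copy, with a median of 4 copies, and at +382.5 kb 37.9%, with a median of 8 copies. Shares of 50% or less were found in 6.07% of all intervals. The windows at +50 kb and +125.2 kb had 76.8% and 79.7%, the repeats printed above being in the second of these. Reads were kept by the authors where they aligned at a single place, and the part of repeated sequence in these intervals was not tested.

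**Figure D5:**
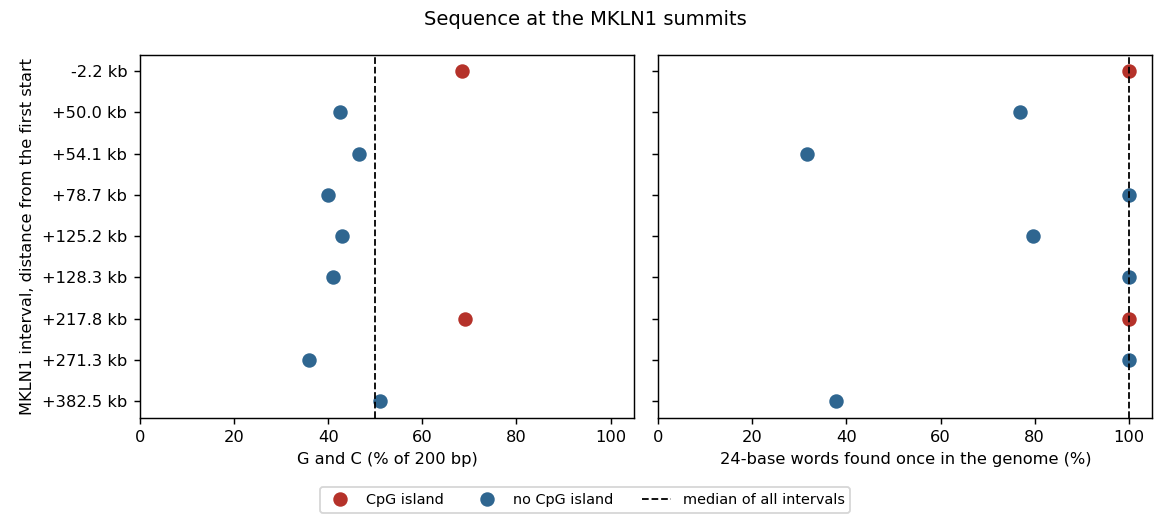
Share of G and C in the 200 bp summit window (left) and share of its 24-base words found once in the genome (right), both in %, for the 9 MKLN1 intervals in order of distance from the first start; dashed lines are medians of all intervals. The windows at -2.2 and +217.8 kb have 68.5% and 69% G and C, and the lowest single-copy shares are 31.6% at +54.1 kb and 37.9% at +382.5 kb.

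A word like that bound by the transcription factor AP-1, TGAATCA, was present at 1 MKLN1 summit. TGANTCA, which reads the same on both strands, was in 1 of 9 windows (11.1%, exact 95% binomial interval 0.281% to 48.2%, for counting error only), against 20.2% of all intervals. Without the CpG island pair it was in 1 of 7 (14.3%, 0.361% to 57.9%), against 28.8% of the intervals in protein-coding genes without a CpG island, a share inside that interval. The stricter TGACTCA, searched on both strands and contained in TGANTCA, was in 0 of 9 (upper bound 33.6%), against 14.8% of all. Without the CpG island pair it was in 0 of 7 (upper bound 41.0%), against 20.4% of those in protein-coding genes without a CpG island. It was in 4 of the 15 windows of PRKG1 and 1 of the 8 of HMGA2. Of the genes most like MKLN1, GLIS3 had TGACTCA in 2 of 7 windows, PALM2AKAP2 in 1 of 8 and OSBPL9 in 1 of 7. RAD51B had it in 0 of 8 and NAV2 in 0 of 7. The match at +78.7 kb lay 60 bp from the summit. Over whole intervals TGANTCA was found in 8 of 9, against 57.8% of all, but those of MKLN1 are longer and have more room for a word. Without the CpG island pair it was in 6 of 7 whole intervals, against 75.8% of the intervals in protein-coding genes without a CpG island.

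Of the other words, the E-box CACGTG was in 0 of 9 windows (6.72% of all intervals). CGTCGC (5.25% of all), GGGCGG (16.8%) and CGTGAC (7.7%), searched on both strands, were each in 1 of 9, the window at -2.2 kb in each case. Their matches there lay 66, 14 and 78 bp from the summit. Among all intervals with a CpG island, the window shares were 14.1% for CGTCGC, 38.9% for GGGCGG and 15.6% for CGTGAC. None of these words was in the window at the canonical start, although over whole intervals both CpG island members held CGTCGC (17.3% of all intervals), the GC box GGGCGG (46.5%) and also CGTGAC (25.1%). Those shares include intervals without a CpG island. Both members, 2328 and 2267 bp long, also exceed the list's median length of 1296 bp and have more room for a word. A match describes the reference sequence and not a bound site.

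No other gene of the CTLH complex carried an interval. The list of 11 genes holds MKLN1 and 10 others: the scaffold genes RANBP9, RANBP10 and ARMC8, the ligase subunit genes MAEA, RMND5A and RMND5B, the substrate receptor gene GID4, and GID8, WDR26 and YPEL5. Of the 10 others, 0 had an interval (exact 95% upper bound 30.8%), against 15.4% of all protein-coding genes, which lies below that bound. The nearest summits to a start were 13.3 kb away at GID4 on chromosome 17 and 13.4 kb at GID8 on chromosome 20. For the other 8 genes the nearest summit was 325.4 to 3050 kb from the start. MKLN1 itself had no summit within 1000 bp of the first base of the gene, where 6.97% of protein-coding genes had one.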

How the data were processed

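Per the series' design text, BWA (default settings) placed the 75 nt NextSeq 500 reads on hg19, uniquely placed reads with up to 2 mismatches were retained, and MACS called the intervals. The sources used here give no tool versions and do not say whether MACS was run against the input. Per the file headers, height and mean density are the authors' signal (fragment density), and the deposited score is the MACS p-value on a -10*log10 scale, at least 70. Nothing was pooled, per the labels.

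Intervals whose list names MKLN1 were taken with the authors' distances. Summits were placed on GENCODE version 44 (GRCh37, the files' build), and 200 bp windows from 100 bp before the summit were read from the genome with pysam 0.24.0. Words were searched on both strands, and 24-base words were counted over the whole assembly, both strands together. The word search, the share of G and C and the counting of 24-base words were tested on simulated data. The choice of members and the placement of summits were not. Members, lists and words were chosen with earlier results of these data known. Genes named are MKLN1, those sharing its intervals, its protein-coding neighbours, the CTLH list and 5 genes like it; PRKG1, HMGA2, LINC-PINT and MKLN1-AS were added after their values were seen. Binomial intervals are exact (Clopper-Pearson). Alternatives were stricter scores and heights, other assignments, merging and other windows.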

Additional observations from a re-analysis of the deposited data

How the results depend on the processing

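Of 25 alternative values, 15 stayed within 1.5 times a count or density, or equal to another value, and 10 moved. The count of 9 intervals was 3 in the upper quartile of score and 3 with the summit inside the canonical transcript, the alternative added after the data were seen. It was 6 to 9 in the other 6 settings, and 7 with summits within 10000 bp merged. Density ranged from 1.55 to 2.34 per 100000 bp. The median height was 16.5 at or above the median score. TGANTCA was in 0 windows of 100 bp, 2 windows of 400 bp and 8 whole intervals, against 1 of 200 bp, and TGACTCA in 0. Median G and C was 43.25% over 400 bp and 42.4% over whole intervals. CTLH genes with a summit within 1000 bp of the first base of the gene numbered 0, against 1 with any interval. Starts inside a gene, such as the canonical start of MKLN1 with its summit, do not enter that count. These changes follow from which intervals or bases each setting keeps. No paired analysis was possible because the study has a single ChIP library. With read depth unknown, the effect of depth on the number of intervals cannot be given.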

Other observations

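The longest interval of the whole list, 15187 bp with a height of 29, lay at -215.5 kb from the first MKLN1 start (chromosome 7, 130577132 to 130592319) and was assigned to LOC100506860 and hCG_2038586. The 2 intervals after it, 7496 and 7481 bp long, ranked 4 and 5 by length, and that at -168.3 kb, 6028 bp long, ranked 8. The 9 intervals from -264.3 to -38.2 kb had a median length of 4934 bp and heights from 14 to 29, with a median of 17. None of the 9 was given a CpG island.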
